A study of Mus musculus with 3 samples.

Results

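The genes of glycolysis and of the hypoxia response described here are 40 genes chosen by function: glycolytic enzymes, the hypoxia-inducible factors (HIFs) with their regulators, and HIF target genes. Every array probe whose RefSeq accession belongs to one of these symbols was taken, which gave 68 of the 55681 probes on the array. All 40 had at least 1 probe well above background in the 3 control and in the 3 treated channels, so they entered the tests as 40 of 21743 genes and transcripts.

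RNA was measured in primary cultures of mmtv-PyMT mammary tumors from 3 mice, called tumors 1, 2 and 3. In these mice the MMTV promoter drives the polyoma middle T oncogene in mammary epithelium. From each tumor, 1 culture was left as control and 1 was exposed for 24 h to RL (RANK ligand), and DNase-treated RNA of the pair was hybridized together on 1 Agilent mouse expression array. Both kinds of culture grew in DMEM F12 with FBS, antibiotics, cholera toxin, insulin and EGF. The labels give the RL dose as 1000 µg/mL and the methods of the study give 1 µg/mL. The 3 arrays, with 6 channels in all, shared 1 slide and 1 scan. RL samples carried the dye Cy3 for tumors 1 and 3 and Cy5 for tumor 2, with the control in the other dye. No ages were given, and oxygen was not named as a variable of the cultures.

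Glycolysis breaks glucose down to pyruvate in the cytosol, and tumor cells often send much of that pyruvate to lactate even when oxygen is present. HIFs are pairs of an oxygen-labile alpha subunit (Hif1a or Epas1) and the stable partner Arnt; prolyl hydroxylases of the Egln family and the ubiquitin ligase subunit Vhl remove the alpha subunit when oxygen is ample. When it persists, the pair binds short DNA elements and raises transcription of glucose transporters, glycolytic enzymes, acid-handling enzymes and angiogenic factors, so that Hif1a protein, rather than its mRNA, is the usual point of control.

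Each array held 59305 spots beside 3671 control spots, and none was saturated. Median spot intensity was 42, 43 and 45 in Cy3 for tumors 1, 2 and 3, over local backgrounds of 31, 34 and 36. The Cy5 medians were 96.5, 99 and 100.5, and their backgrounds 70, 71 and 73. Probes well above background made up 55.2%, 56.2% and 55.7% of the control channels and 55.9%, 55.7% and 54.6% of the RL channels. With 3 arrays, the number of tumors limits the precision of every value below. Values are log2 ratios of RL over control after normalization, where 0 is no difference, and levels are the normalized log2 intensities of a channel.

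Across the 40 genes, mean ratios were small: 11 were above 0 and 29 below, with a median of -0.06 against -0.002 for all genes tested. By tumor, the median of the 40 was -0.11, 0.04 and -0.11, so tumor 2 stood on the other side of 0 from the other two. Higd1a had ratios above 0 in all 3 tumors, which is 2.5% of the 40 genes where 14.1% of all genes did so. Pfkm, Aldoa, Aldoc, Pkm, Car9, Car12 and Hif1a had ratios below 0 in all 3, 17.5% of the 40 genes against 13.6% of all genes. After a running median of the ratios at like brightness was subtracted on each array, 12.5% of the 40 and 13.7% of all genes had ratios below 0 in all 3; Aldoa, Pkm and Car9 no longer did, and Egln3 did. Every 95% confidence interval of the 40 lay within a 2-fold difference in either direction, and 36 lay within 1.5-fold, the exceptions being Aldoa, Aldoc, Eno1 and Car12. The lowest interval end was -0.78, for Aldoc, and the highest was 0.34, for Hk2.

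None of the 40 passed an adjusted p of 0.05 in limma, where 6 genes (0.0276% of those tested) did, 1 higher and 5 lower. At an unadjusted p under 0.05 limma gave 0 higher and 3 lower among the 40 (Aldoa, Aldoc and Car12), against 3.5% of all genes higher and 3.58% lower. With a term for the dye added, limma gave 0 higher and 1 lower (Car12) at an adjusted p under 0.05, where 0.57% of all genes were higher and 0.768% lower. The rank product, the test named in the study's methods, gave 0 of the 40 at a proportion of false positives (pfp) under 0.05, against 0.405% of all genes. After the running median by brightness, limma again gave 0 of the 40, against 0.11% of all genes. At an unadjusted p under 0.05 it then gave 0 higher and 3 lower of the 40, against 4.09% of all genes higher and 3.99% lower. The result depended on tumor 2: without it, limma called 9 of the 40 lower (Hk1, Aldoa, Aldoc, Gapdh, Pgk1, Eno1, Ldha, Car12 and Adm) and 569 genes higher and 928 lower overall. Without tumor 1 those overall counts were 0 higher and 1 lower, without tumor 3 they were 0 and 2, and no member was called in either case. Leaving out tumor 1, 2 or 3 turned the sign of the mean for 9, 5 and 3 of the 40 genes. A dye term turned it for 6, which put 25 of the 40 below 0 and 15 above. The 9 genes called without tumor 2 rest on the 2 arrays that both carry RL in Cy3, so that RL and dye cannot be told apart in them. With median centring of the arrays in place of loess, the median over all genes was -0.11 and all 40 genes were below 0.

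**Figure D1:**
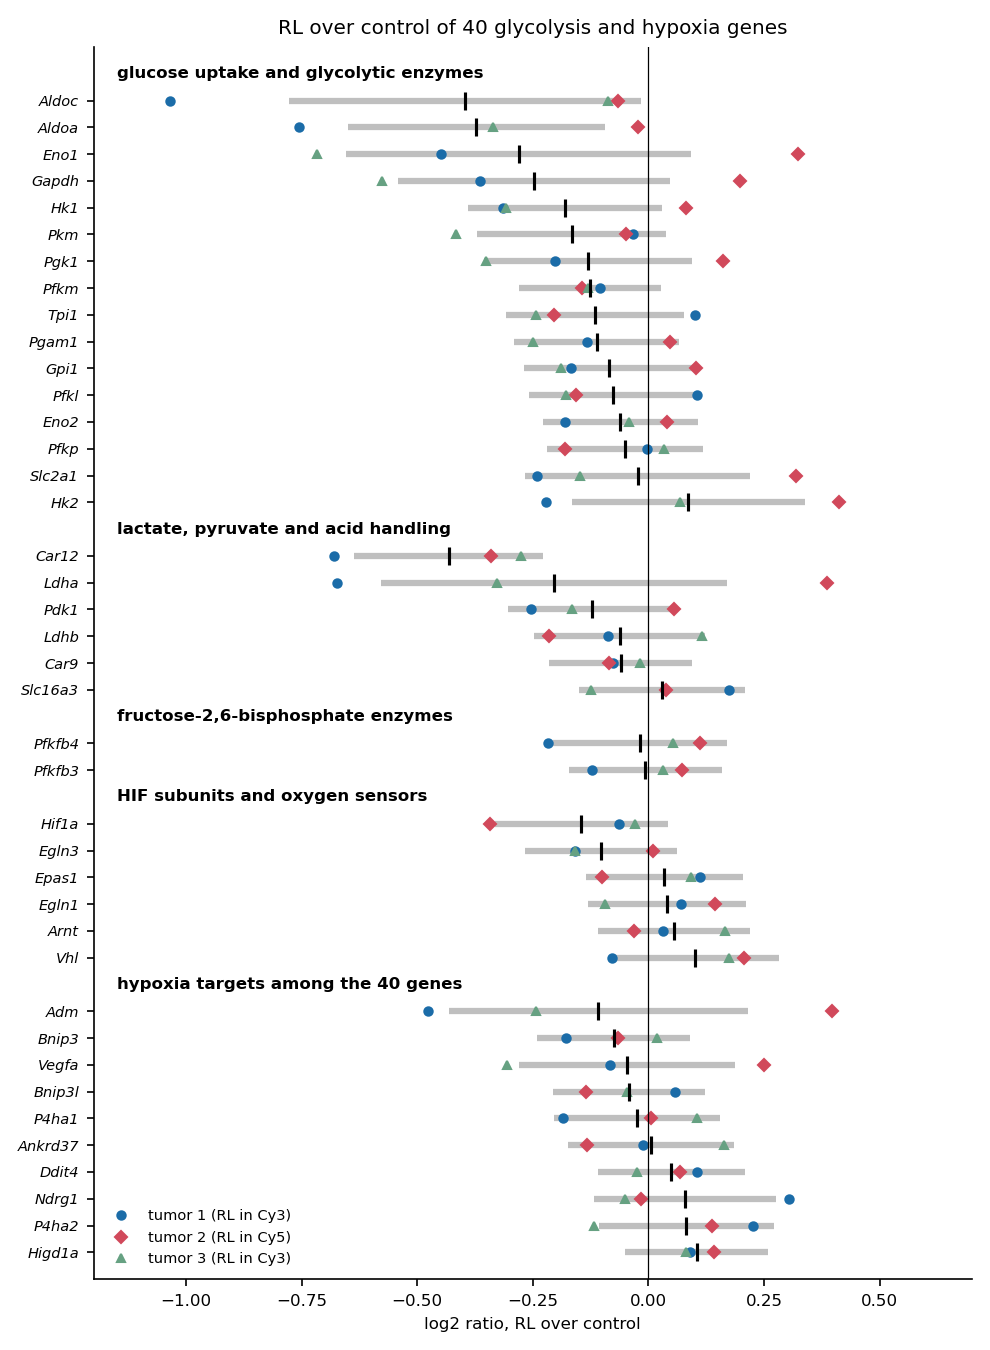
Log2 ratio of RL over control for each of the 40 genes, grouped by role, with 1 symbol per tumor, a black bar for the mean and a gray band for limma's 95% confidence interval. Most glycolytic enzymes have tumor 2 to the right of tumors 1 and 3, and Car12 has all 3 tumors below 0. The 11 means above 0 are below 0 under median centring in place of loess, where the median of all genes is -0.11.

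Of the 16 genes for glucose uptake and the glycolytic enzymes, 15 had a mean below 0 and only Hk2 a mean above it, with a median of -0.12. With a dye term the median was -0.11, and Slc2a1 was above 0 as well, at 0.06. Tumor by tumor, the median of the 16 was -0.19, 0.04 and -0.22. At the start of the pathway, mean ratios were -0.02 for the glucose transporter Slc2a1, -0.18 for the hexokinase Hk1 and -0.08 for the isomerase Gpi1. Without tumor 1 these means were 0.09, -0.11 and -0.04, and without tumor 2 they were -0.19, -0.31 and -0.18. From aldolase on, the lowest means were those of Aldoc, Aldoa, Eno1 and Gapdh, while the 3-carbon enzymes Tpi1, Pgk1 and Pgam1 had means of -0.12, -0.13 and -0.11. Without tumor 3 these 3-carbon enzymes had means of -0.05, -0.02 and -0.04, and without tumor 2 of -0.07, -0.28 and -0.19. Among the phosphofructokinases, which catalyze the committed step, Pfkl and Pfkp had means of -0.08 and -0.05 with tumors on both sides of 0. In bulk cultures a lower value can come from fewer cells of a type or from less RNA per cell, and these cannot be told apart.

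Pfkm, the muscle-type phosphofructokinase, varied least among the enzymes that were below 0 in all 3 tumors. Its control levels were 11.11, 10.81 and 10.49 in tumors 1, 2 and 3 and its RL levels 11, 10.67 and 10.36. Each RL culture was slightly below its own control, while the arms overlapped because the tumors differed by more than that. The ratios were -0.10, -0.14 and -0.13, with a mean of -0.13 (SE 0.07, n = 3) and a limma adjusted p of 0.772. Its probe was printed in 10 spots per array, whose standard deviation was 0.05, 0.06 and 0.08 in tumors 1, 2 and 3.

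Aldolase splits the fructose bisphosphate made by phosphofructokinase, and Aldoa and Aldoc encode the muscle-type and brain-type isozymes. Aldoa levels were 17.60, 16.87 and 17.21 in the control cultures of tumors 1, 2 and 3 and 16.85, 16.84 and 16.88 with RL. The RL cultures lay close together, the controls were spread out, and the arms overlapped only through tumor 2, where the pair was nearly level. Ratios were -0.76, -0.02 and -0.34, with a mean of -0.37 (95% interval -0.65 to -0.09, n = 3), lower in 3 of 3 tumors with a limma adjusted p of 0.561; without tumor 1 the mean was -0.18.

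Aldoc levels differed far more between tumors: 17.16, 15.97 and 14.65 in the controls of tumors 1, 2 and 3 and 16.13, 15.91 and 14.56 with RL. The 2 arms overlapped widely, and only tumor 1 had a sizable gap within its pair. Ratios were -1.03, -0.07 and -0.09, with a mean of -0.40 (95% interval -0.78 to -0.02), lower in 3 of 3 tumors with a limma adjusted p of 0.70. Without tumor 1 the mean was -0.08.

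Gapdh and Eno1, the dehydrogenase and the enolase of the lower pathway, had opposite signs in tumor 2 and in the other two. Gapdh levels were 17.49, 17.16 and 17.53 in the controls of tumors 1, 2 and 3 and 17.12, 17.36 and 16.96 with RL. Its ratios were -0.37, 0.20 and -0.58, with a mean of -0.25 (95% interval -0.54 to 0.05) and a limma adjusted p of 0.767, below 0 in 2 of 3 tumors. Eno1 levels were 17.00, 16.58 and 17.05 in the controls and 16.55, 16.90 and 16.33 with RL. For both enzymes the RL culture was the lower of the pair in tumors 1 and 3 and the higher in tumor 2. Eno1 ratios were -0.45, 0.32 and -0.72, with a mean of -0.28 (95% interval -0.65 to 0.09) and a limma adjusted p of 0.794, below 0 in 2 of 3 tumors. Without tumor 2 the means were -0.47 for Gapdh and -0.58 for Eno1, and without tumor 3 they were -0.08 and -0.06.

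Pkm, the pyruvate kinase that ends the pathway, was below 0 in all 3 tumors largely through tumor 3. Control levels were 16.30, 16.10 and 16.33 and RL levels 16.27, 16.05 and 15.92 in tumors 1, 2 and 3. The pairs of tumors 1 and 2 were nearly level, and the tumor 3 RL culture was the lowest of the 6. Ratios were -0.03, -0.05 and -0.42, with a mean of -0.17 and a limma adjusted p of 0.78; without tumor 3 the mean was -0.04, and after the running median by brightness tumor 1 was at 0.11. Hk2, the inducible hexokinase and the enzyme with the highest mean, had ratios of -0.22, 0.41 and 0.07, with a mean of 0.09 and a limma adjusted p of 0.911, above 0 in 2 of 3 tumors. Its mean was -0.08 without tumor 2 and below 0 under median centring, where the median of all genes was -0.11.

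**Figure D2:**
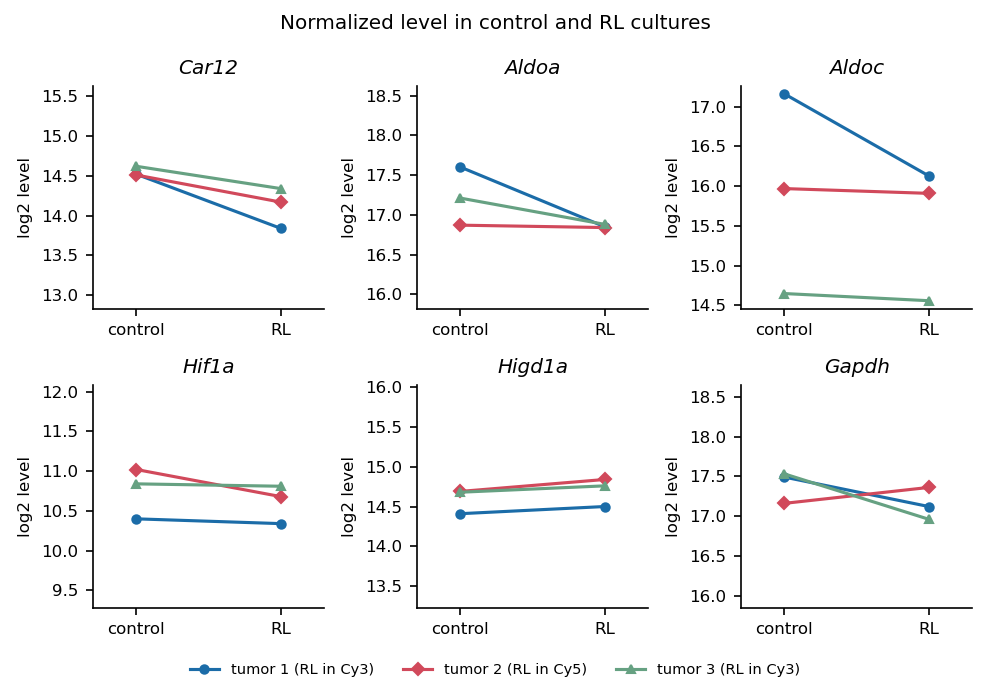
Normalized log2 level of 6 genes in the control and RL culture of each tumor, with a line joining the 2 cultures of a tumor and axes that span the same range in each panel. Car12 lines all slope down with no overlap between the arms, Gapdh lines cross, and Aldoc levels differ more between tumors than within a pair. Higd1a lines slope up slightly. Under median centring in place of loess its mean was -0.09, where the median of all genes was -0.11.

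The alternation of the enzymes between tumors coincided with the order of the dyes. Of the 16 enzymes, 8 (50%) were brighter in Cy5 than in Cy3 on all 3 arrays, whichever sample Cy5 held; of the 40 genes 13 (32.5%) were, and of all genes 19.4%. Among 4 classes of brightness, this pattern was most frequent in the brightest. In the brightest 1% of all genes (217 genes), 95.4% were brighter in Cy5 on all 3 arrays, and their median ratios of RL over control were -0.37, 0.40 and -0.36 in tumors 1, 2 and 3. Aldoa, Eno1, Gapdh and Ldha belong to that group, and their median ratios were -0.56, 0.26 and -0.46. Aldoa, at -0.02 in tumor 2, was the exception among these 4, not brighter in Cy5 on that array. In the next 4% of genes by brightness, which holds 7 of the 40, the median ratios of all genes were -0.06, 0.06 and -0.09 and those of the 7 were -0.13, 0.05 and -0.24. Among the 12 reference genes, which encode cytoskeletal, ribosomal and other widely expressed proteins, 5 (41.7%) were brighter in Cy5 throughout; their lowest mean belonged to Actb, with ratios of -0.65, 0.57 and -0.70.

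Subtracting on each array the running median of the genes nearest in brightness changed single enzymes more than the group. The median of the 16 enzymes became -0.09, with -0.10, -0.07 and -0.17 in tumors 1, 2 and 3, and 15 of 16 means were below 0 as before. Ratios in tumors 1, 2 and 3 became 0.01, -0.21 and -0.21 for Gapdh and -0.16, 0.03 and -0.43 for Eno1. Aldoa became -0.39, -0.37 and 0.02. The tumor nearest to 0 thus changed from tumor 2 to tumor 1 for Gapdh and from tumor 2 to tumor 3 for Aldoa, and remained tumor 2 for Eno1.

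**Figure D3:**
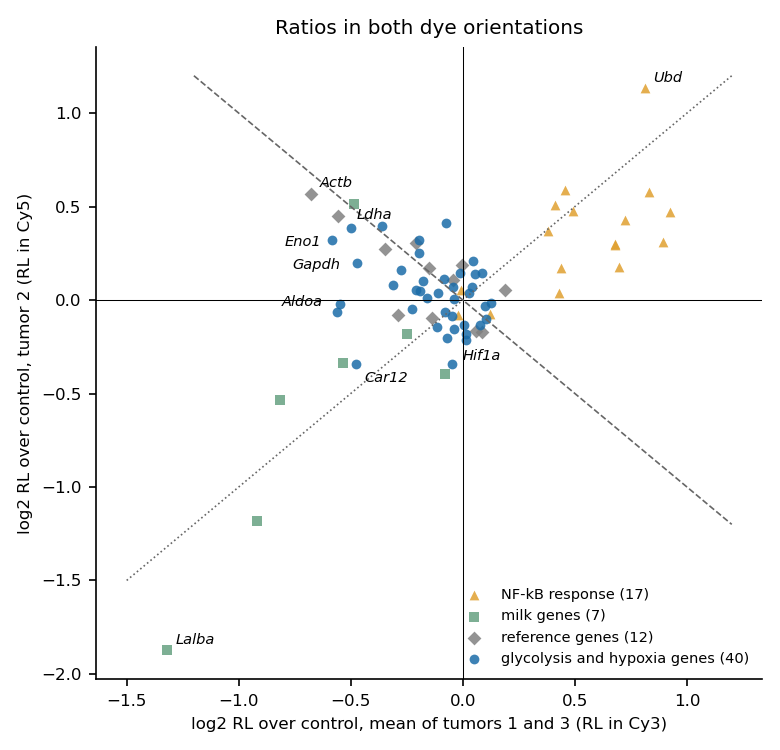
Log2 ratio of RL over control in tumor 2, where RL carried Cy5, against the mean of tumors 1 and 3, where it carried Cy3; the dotted line marks equal ratios and the dashed line equal size with opposite sign. Eno1, Gapdh and Ldha lie toward the dashed line with the reference gene Actb, whereas Car12 lies near the dotted line; 6 of the 7 milk genes are below 0 on both axes, and Btn1a1 lies near the dashed line. The NF-kB genes drawn include Ubd and Cxcl10, which passed the filter through the RL channels alone.

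Probes of 1 gene gave a further view of the same pattern. Of the 40 genes, 24 had 1 probe above background and 16 had more, and in 5 of those 16 (Arnt, Bnip3l, Gapdh, P4ha1 and Vegfa) the probes' mean ratios had both signs. Gapdh had 7 probes with means from -0.26 to 0.01. Its 4 brightest were below 0 in tumors 1 and 3 and above 0 in tumor 2, whereas its 3 dimmest were above 0 in tumor 1 and below 0 in tumors 2 and 3. Ldha had 3 probes with means from -0.20 to -0.06, and only the brightest was above 0 in tumor 2.

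**Figure D4:**
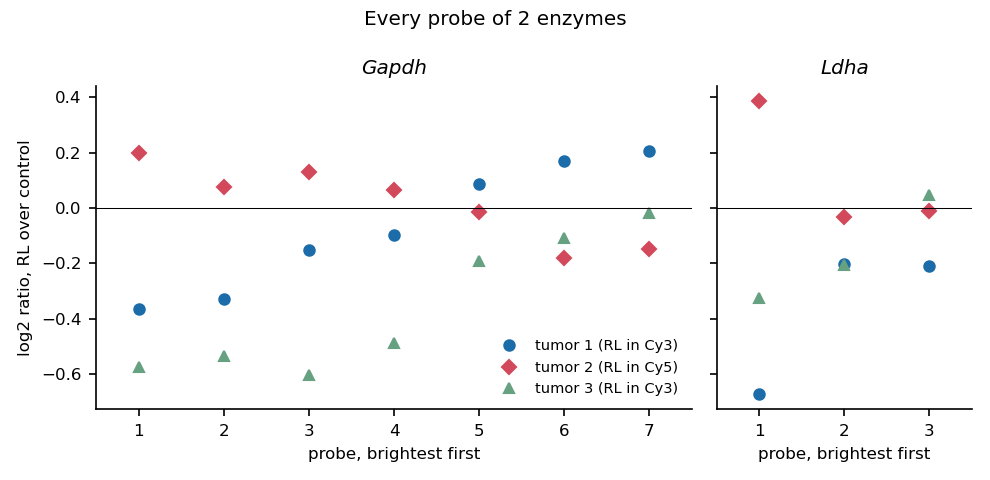
Log2 ratio of RL over control for every probe of Gapdh (7 probes) and Ldha (3 probes), ordered from the brightest to the dimmest, with 1 symbol per tumor. The gap between tumor 2 and the other tumors is wide at the brightest probe of each gene, and the order of tumors 1 and 2 turns over along the Gapdh probes.

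The 6 genes for lactate, pyruvate and acid handling had a median ratio of -0.09, with 1 mean above 0 and 5 below. The mean above 0 was that of the lactate exporter Slc16a3, 0.03. It was below 0 under median centring, as was the median of all genes. Ldha, the lactate dehydrogenase subunit that HIF induces, had levels of 17.44, 16.84 and 17.26 in the controls of tumors 1, 2 and 3 and 16.76, 17.23 and 16.94 with RL. Its RL culture was lower than the control in tumors 1 and 3 and higher in tumor 2. Ratios of -0.67, 0.39 and -0.33 gave a mean of -0.20 with a limma adjusted p of 0.862; the mean was 0.03 without tumor 1 and -0.50 without tumor 2. Ldhb, the other lactate dehydrogenase subunit, had a mean of -0.06, or 0.01 without tumor 2 and -0.15 without tumor 3. Pdk1, the kinase that inhibits pyruvate dehydrogenase and so the making of acetyl-CoA from pyruvate, had a mean of -0.12, with tumor 2 above 0.

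Car12 had the lowest mean of the 40 genes, read from 1 probe printed in 1 spot per array. It encodes a membrane carbonic anhydrase that faces the outside of the cell and takes part in pH control. Its levels were 14.52, 14.51 and 14.62 in the control cultures of tumors 1, 2 and 3 and 13.84, 14.17 and 14.34 with RL. The controls were close to each other, every RL culture was below every control, and the arms did not overlap. Ratios were -0.68, -0.34 and -0.28, with a mean of -0.43 (SE 0.09, 95% interval -0.64 to -0.23, n = 3), which is 0.741 of the control level. The limma adjusted p was 0.26, so Car12 did not pass the test that was set, and its pfp by rank product was 0.0662. With a dye term the value was -0.41 and the limma adjusted p 0.0028, lower in 3 of 3 tumors. Over the alternatives the mean ran from -0.63 to -0.31 and the adjusted p from 0.000671 (without tumor 2) to 1.00 (no pairing by tumor). With the running median by brightness the mean was -0.46, and the limma adjusted p was 0.119 without a dye term and 0.0659 with one. The p-values with a dye term rest on the spread between tumors 1 and 3, because the term fits tumor 2 exactly. Among the 40 genes Car12 alone had control levels that spanned less than its mean difference between the arms. The share of all genes with this trait, or with arms that do not overlap, was not counted.

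Car9, a related membrane carbonic anhydrase and a widely used marker of hypoxic tumor cells, stayed near 0. Its control levels were 12.10, 12.07 and 11.53 in tumors 1, 2 and 3 and its RL levels 12.02, 11.98 and 11.51. Each RL culture was a little below its control, and the arms overlapped through tumor 3, which was lower in both. Ratios were -0.08, -0.08 and -0.02, with a mean of -0.06 (95% interval -0.21 to 0.09) and a limma adjusted p of 0.901; after the running median by brightness tumor 3 was at 0.003.

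Promoter sequence was compared because HIF target genes carry a short core in their regulatory DNA. The RefSeq promoter table, on build GRCm38.p6, had entries for 37 of the 40 genes, with 51 starts in all; Epas1, Bnip3l and Ndrg1 had none. In the 250 bases before each start, ACGTG or GCGTG, on either strand, was present in 40 of 51 promoters (78.4%) and in 38.6% of all 32851 promoters. ACGTG was present in 45.1% against 16.6% and GCGTG in 54.9% against 28.2%; CACGTG holds ACGTG on both strands and counts for each. The genes were chosen partly as HIF targets, and a match describes the letters only. The sequences below, 5′ to 3′ on the gene's strand, show Car12, whose arms did not overlap; Car9, its relative near 0; the first of the Ldha starts, with the opposite signs between tumors; Higd1a, above 0 in all 3 tumors; and Ppp1r3c, the lowest mean among the further hypoxia targets. Capitals mark the matches. Car12 (chr9:66713436-66713685, plus strand) had 0 matches, Car9 (chr4:43506776-43507025, plus strand) had 1, 18 bases before the start, and Ldha (chr7:46845554-46845803, plus strand) had 5. Higd1a (chr9:121857797-121858046, minus strand) had 2 overlapping matches and Ppp1r3c (chr19:36736605-36736854, minus strand) had 4. Vhl, whose mean was close to that of Higd1a, had 0 matches. These genes were picked by their values, and a relation between matches and ratios was not tested.
Car12: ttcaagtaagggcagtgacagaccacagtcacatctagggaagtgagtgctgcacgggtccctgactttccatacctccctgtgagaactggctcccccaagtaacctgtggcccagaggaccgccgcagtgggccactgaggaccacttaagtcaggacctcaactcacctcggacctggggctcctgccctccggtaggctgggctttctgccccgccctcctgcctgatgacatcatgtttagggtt
Car9: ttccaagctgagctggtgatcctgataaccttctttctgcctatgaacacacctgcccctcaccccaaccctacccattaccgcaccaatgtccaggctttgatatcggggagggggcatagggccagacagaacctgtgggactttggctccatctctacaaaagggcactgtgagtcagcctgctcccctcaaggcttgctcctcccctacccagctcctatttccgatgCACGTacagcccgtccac
Ldha: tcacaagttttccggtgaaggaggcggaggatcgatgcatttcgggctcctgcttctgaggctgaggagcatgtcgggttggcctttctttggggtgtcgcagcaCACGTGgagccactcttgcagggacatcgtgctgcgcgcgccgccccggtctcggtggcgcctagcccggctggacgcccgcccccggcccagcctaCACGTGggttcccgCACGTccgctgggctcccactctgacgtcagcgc
Higd1a: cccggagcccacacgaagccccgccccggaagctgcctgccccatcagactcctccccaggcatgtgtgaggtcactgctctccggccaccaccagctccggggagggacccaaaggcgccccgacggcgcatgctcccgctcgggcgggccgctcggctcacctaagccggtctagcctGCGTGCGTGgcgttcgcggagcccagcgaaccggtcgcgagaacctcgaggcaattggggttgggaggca
Ppp1r3c: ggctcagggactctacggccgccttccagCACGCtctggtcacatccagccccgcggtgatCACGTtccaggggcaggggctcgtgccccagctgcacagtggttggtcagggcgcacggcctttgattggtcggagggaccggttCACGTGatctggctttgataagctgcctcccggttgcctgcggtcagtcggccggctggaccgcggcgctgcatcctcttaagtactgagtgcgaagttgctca

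Pfkfb3 and Pfkfb4 make the sugar phosphate that activates phosphofructokinase and are both induced by HIF. Their means were -0.01 and -0.02, each below 0 in tumor 1 and above 0 in tumors 2 and 3.

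The HIF subunits and oxygen sensors had a median ratio of 0.04, with 4 means above 0 and 2 below. By tumor, their median was -0.02, -0.01 and 0.03 in tumors 1, 2 and 3. The 4 means above 0 were below 0 under median centring, where the median of all genes was -0.11. Hif1a, the labile subunit itself, had control levels of 10.40, 11.02 and 10.84 in tumors 1, 2 and 3 and RL levels of 10.34, 10.68 and 10.81. Each RL culture was below its control, the arms overlapped, and tumor 2 held nearly all of the difference. Ratios were -0.06, -0.34 and -0.03, with a mean of -0.14 (95% interval -0.33 to 0.04), lower in 3 of 3 tumors with a limma adjusted p of 0.785; without tumor 2 the mean was -0.05. Its partner Arnt had a mean of 0.06 and the alternative alpha subunit Epas1 one of 0.03, with tumor 2 below 0 for both. Vhl, which marks the alpha subunits for degradation, had ratios of -0.08, 0.21 and 0.17, with a mean of 0.10 and a limma adjusted p of 0.855, above 0 in 2 of 3 tumors; without tumor 2 the mean was 0.05. The prolyl hydroxylases Egln1 and Egln3 had means of 0.04 and -0.10.

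The 10 other hypoxia targets divided evenly, 5 means above 0 and 5 below, with a median of -0.01 and tumor medians of 0.02, 0.04 and -0.04. Higd1a, a mitochondrial protein that adjusts respiration under low oxygen, had control levels of 14.41, 14.69 and 14.68 and RL levels of 14.50, 14.84 and 14.76 in tumors 1, 2 and 3. Each RL culture was slightly above its control, and the arms overlapped because both cultures of tumor 1 were low. Ratios were 0.09, 0.14 and 0.08, with a mean of 0.10 (95% interval -0.05 to 0.26), above 0 in 3 of 3 tumors with a limma adjusted p of 0.814. Under median centring its mean was -0.09, where the median of all genes was -0.11. A second, dimmer Higd1a probe gave 0.20, -0.12 and 0.18, so the sign in tumor 2 depended on the probe.

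The remaining targets lacked a common sign. Vegfa, the main angiogenic factor of the hypoxia response, had ratios of -0.08, 0.25 and -0.31 with a mean of -0.05, or 0.08 without tumor 3. Adm, which encodes the vasodilator adrenomedullin, had -0.48, 0.40 and -0.24 with a mean of -0.11, or 0.08 without tumor 1. Both had tumor 2 above 0 and the others below, although neither was among the brightest 5% of genes. Ndrg1, a stress-induced gene, had ratios of 0.30, -0.02 and -0.05 with a mean of 0.08 and a limma adjusted p of 0.901, above 0 in 1 of 3 tumors; without tumor 1 the mean was -0.03. P4ha2, a collagen prolyl hydroxylase subunit, had 0.23, 0.14 and -0.12 with a mean of 0.08 and a limma adjusted p of 0.897, above 0 in 2 of 3 tumors; without tumor 1 the mean was 0.01. Both means were below 0 under median centring, where the median of all genes was -0.11. The mitophagy receptors Bnip3 and Bnip3l, the collagen hydroxylase subunit P4ha1, the ankyrin repeat gene Ankrd37 and the mTORC1 inhibitor Ddit4 had means from -0.08 (Bnip3) to 0.05 (Ddit4).

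For 39 of the 40 genes, all but Car12, the control levels of the 3 tumors spanned more than the size of the mean ratio. The share of all genes for which this held was not counted. Control levels of a gene spanned 0.51 on the log2 scale at the median of the 40 genes and 0.31 at the median of all genes. Controls carried Cy3 in tumor 2 and Cy5 in tumors 1 and 3, so tumor 2 and dye cannot be told apart in these spans. The controls were over 2-fold apart for 5 of the 40 (Aldoc, Epas1, Egln3, Ndrg1 and P4ha2), and for 7.96% of all genes. Egln3, itself a HIF target that limits the response, had control levels of 10.02, 11.37 and 8.62 in tumors 1, 2 and 3, a 6.76-fold span. With RL the levels were 9.86, 11.38 and 8.46, so the order of the tumors was the same in both arms and the pairs nearly coincided. Ndrg1 ranked the tumors differently, with control levels of 13.51, 12.49 and 11.49 and RL levels of 13.81, 12.47 and 11.44. Epas1 was lowest in tumor 3 in both arms, at 11.35 in the control and 11.44 with RL, against 12.81 and 13.14 in the controls of tumors 1 and 2. P4ha2 was highest in tumor 1, with control levels of 10.52, 9.13 and 9.36 and RL levels of 10.75, 9.27 and 9.25. Of the 5 genes, Aldoc, Ndrg1 and P4ha2 were thus highest in tumor 1 and Egln3 and Epas1 in tumor 2, in both arms. All but P4ha2 were lowest in tumor 3 in both arms; the P4ha2 control was lowest in tumor 2.

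Lists of neighboring pathways also had medians near 0, and their difference from the 40 genes was not tested. For comparison, limma gave 3.5% of all genes higher and 3.58% lower at an unadjusted p under 0.05. Of 32 other glycolysis and gluconeogenesis genes, 24 were tested, with a median of -0.02; limma called 0 with or without a dye term, the rank product 0, and an unadjusted p under 0.05 gave 1 higher and 1 lower. The highest mean was that of Fbp2, a fructose bisphosphatase that opposes phosphofructokinase, at 0.27 from ratios of 0.23, 0.11 and 0.46, or 0.17 without tumor 3. The lowest was that of Pdk2, a second kinase of pyruvate dehydrogenase, at -0.19 from -0.39, -0.03 and -0.16, or -0.09 without tumor 1. Mitochondrial use of pyruvate was covered by 24 genes of the TCA cycle and pyruvate dehydrogenase, with a median of -0.02. Cs, the citrate synthase, had no value in tumor 3. In this list limma called 0 with or without a dye term, the rank product 0, and an unadjusted p under 0.05 gave 0 higher and 2 lower. Its extremes were Pdhx, a pyruvate dehydrogenase component, at 0.15 (0.07 without tumor 3) and Suclg2, a succinate-CoA ligase subunit, at -0.25. The pentose phosphate pathway, which branches from glycolysis after hexokinase, had 8 genes with a median of -0.03; limma called 0 with or without a dye term or at an unadjusted p under 0.05, and the rank product 0. Its means ran from -0.16 for G6pdx, which was -0.51 in tumor 2 and 0.01 on average without that tumor, to 0.03 for Rpe.

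The 18 other HIF regulators had a median of -0.04; limma called 0 with or without a dye term, and the rank product 0. An unadjusted p under 0.05 in limma gave 0 higher and 1 lower, against 3.5% and 3.58% of all genes. Cited2, which competes with HIF for the coactivator p300/CBP, had the lowest mean, -0.32 from ratios of -0.19, -0.20 and -0.58, with a limma adjusted p of 0.462, below 0 in 3 of 3 tumors; without tumor 3 the mean was -0.20. Hsp90aa1, a chaperone of Hif1a, had the highest, 0.12.

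Of 38 further hypoxia targets, 35 were tested, with a median of -0.03, 14 means above 0 and 21 below. Limma called 0 of them, and 1 higher and 4 lower at an unadjusted p under 0.05, against 3.5% and 3.58% of all genes. With a dye term it called 1 higher and 2 lower, and the rank product called 2 lower. Of all genes, 0.57% were higher and 0.768% lower with a dye term, and the rank product called 0.405% in either direction. Ppp1r3c, which targets a phosphatase to glycogen and favors glycogen storage, had ratios of -0.96, -0.50 and -0.33, lower in 3 of 3 tumors. Its mean was -0.60 (SE 0.11), with a limma adjusted p of 0.227, or 0.000117 with a dye term, and a pfp of 0.00619. Zfp395, a zinc finger gene, had ratios of -0.67, -0.24 and -0.51, also lower in 3 of 3 tumors. Its mean was -0.47 (SE 0.09), with a limma adjusted p of 0.227, or 0.000917 with a dye term, and a pfp of 0.0435. Cxcr4, the chemokine receptor, had ratios of 0.70, 0.38 and -0.04 and a mean of 0.34, higher in 2 of 3 tumors, with a limma adjusted p of 0.605, or 0.0448 with a dye term. Without tumor 1 the Cxcr4 mean was 0.17, and without tumor 3 it was 0.54. After the running median by brightness, limma with a dye term gave adjusted p of 0.0426 for Ppp1r3c, 0.0343 for Zfp395 and 0.358 for Cxcr4.

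For scale, most genes of the NF-kB pathway, which RANK activates, had means above 0 in the same cultures. Nfkb1, Birc2 and Tnfrsf11a were near 0, with means of 0.01, -0.04 and 0.05. Of 17 tested, 15 were above background in all 6 channels, and 12 of the 15 (80%) were above 0 in all 3 tumors, against 14.1% of all genes. The median of the 15 was 0.49 (0.71, 0.30 and 0.27 in tumors 1, 2 and 3). Of the 15, limma called 0, and 12 higher at an unadjusted p under 0.05; with a dye term it called 11 higher, and the rank product 6. Those called with a dye term were Tnfaip3, Traf3, Birc3, Icam1, Traf2, Relb, Tnfaip2, Nfkb2, Traf1, Nfkbie and Nfkbia. The remaining pair, Ubd and Cxcl10, were above background in 2 of 3 control channels and passed the filter through the RL channels alone, so their calls are no support for the list. Ubd, with a mean of 0.92, higher in 3 of 3 tumors, had a limma adjusted p of 0.023; where all 6 channels had to pass, limma called 0 genes higher over the whole array. After the running median by brightness, limma called that pair and no other of the 17, and with a dye term it called 6, the pair included. Milk genes, 7 of 9 tested, had a median of -0.47; limma called Lalba, Wap and Csn1s1 lower, and with a dye term Csn2 as well. The 40 glycolysis and hypoxia genes, at a median of -0.06, stayed near the 12 reference genes, whose median was -0.04, with -0.14, 0.14 and -0.12 in tumors 1, 2 and 3. After the running median by brightness the median was -0.07 for the 40 genes and -0.02 for the reference genes. By tumor, the reference genes were then at -0.09, 0.04 and -0.04. Of the reference genes limma called 0 with or without a dye term, the rank product 0, and an unadjusted p under 0.05 gave 0 higher and 1 lower; B2m had the highest mean, 0.14, or 0.05 without tumor 1.

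**Figure D5:**
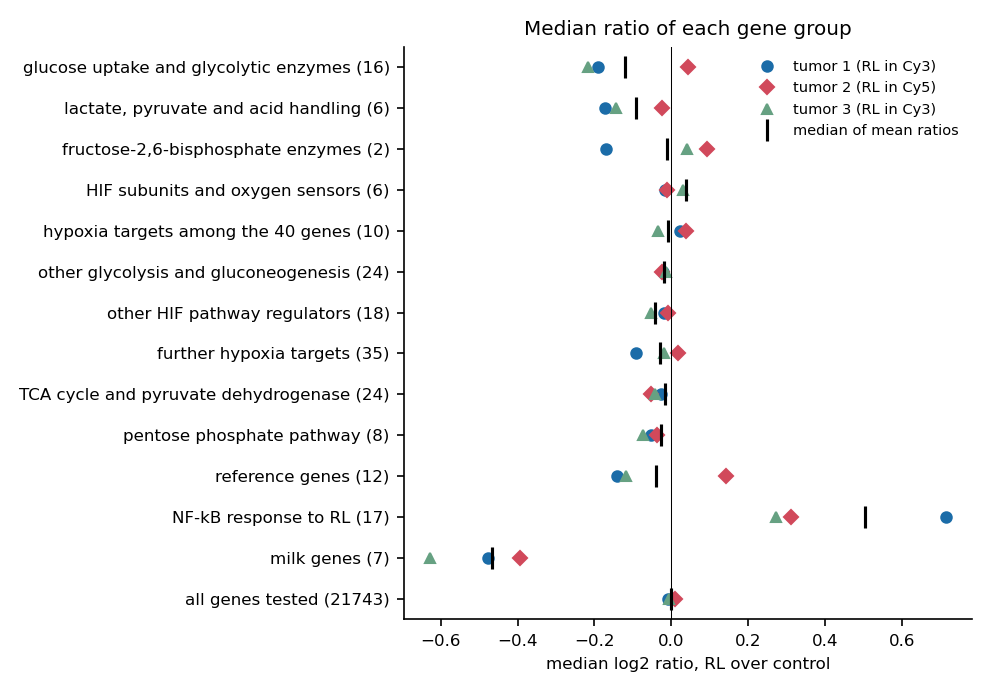
Median log2 ratio of RL over control of each gene group, with 1 symbol per tumor, a black bar for the median of the mean ratios and the number of genes tested in parentheses. Glycolytic enzymes have tumor 2 above 0 and tumors 1 and 3 below it, as the reference genes do. After the running median by brightness the tumor 2 median is -0.07 for the enzymes and 0.04 for the reference genes. The NF-kB response and the milk genes keep 1 sign of their medians in all 3 tumors. The NF-kB group is drawn with Ubd and Cxcl10, which passed the filter through the RL channels alone. Without that pair its medians are 0.71, 0.30 and 0.27 in tumors 1, 2 and 3. The HIF subunits have a bar above 0 with tumors 1 and 2 below 0. Their bar is below 0 under median centring in place of loess, where the median of all genes is -0.11.

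Markers of cell types were read beside these values, as summed linear intensity of each list. Epithelial markers, 10 of 10 above background, summed to 349000, 276000 and 477000 in the controls of tumors 1, 2 and 3 and to 285000, 301000 and 353000 with RL, with Krt18 the most intense. Krt18 was also the lowest epithelial mean, -0.33, with tumor 2 above 0 as for the bright enzymes, and Cldn4 the highest, 0.06. Without tumor 1 these means were -0.14 and -0.06, and without tumor 2 they were -0.72 and 0.18. Fibroblast markers, 10 of 10, summed to 28800, 72100 and 79900 in the controls and 25900, 79000 and 73600 with RL, with Fn1 the most intense; the means ran from -0.19 (Pdgfra) to 0.05 (Thy1). Myeloid markers, 9 of 10, summed to 35600, 26600 and 21400 in the controls and 39400, 24000 and 21200 with RL. Their most intense gene was Cd14, with the highest mean, 0.15 (-0.06 without tumor 1), and Ly6g had no named probe on the array and was not measured. S100a8 had ratios of -0.78, -0.33 and 0.02 and was lower with a dye term, at a limma adjusted p of 0.0489, in 2 of 3 tumors; after the running median by brightness that adjusted p was 0.418, and without tumor 1 the mean moved from -0.37 to -0.16. Of the endothelial markers 4 of 9 were above background, summing to 2340, 2310 and 2210 in the controls and 2570, 2280 and 2460 with RL, with Kdr the most intense. Cdh5, Tek, Tie1, Emcn and Vwf were not above background, and the means ran from -0.11 (Pecam1) to 0.16 (Esam). Cldn5 among the endothelial markers and Ptprc among the myeloid ones were above background in 2 of 3 control channels and passed through the RL channels alone. Of the T cell markers 3 of 7 were above background, with Cd4 the most intense. They summed to 2150, 1910 and 2170 in the controls and 2190, 2000 and 2110 with RL. Cd3d, Cd3g, Cd8a and Cd2 were not above background, and the means ran from -0.04 (Cd4) to 0.11 (Lck). The cultures thus carried the epithelial markers of their label and fibroblast and myeloid markers too, whose part in the values of the 40 genes was not tested.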

How the data were processed

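RNA of 3 pairs of cultures was read on 3 two-channel arrays. Per the labels, the authors used Agilent Feature Extraction 10.7.3.1, and they deposited for each dye the median spot and local background intensity and a processed intensity. The authors also deposited normalized log2 ratios, which were an alternative. In R 4.3.3 with limma 3.58.1, signals were corrected by normexp (offset 50), intensity loess, spatial loess (span 0.1) and Aquantile, and outlier spots were left out. Probes were named by RefSeq accession. A gene was its brightest probe among those well above background in all 3 control or all 3 RL channels. The log2 ratio pairs both cultures of a tumor, which share an array per the labels. A moderated linear model was fitted over all 21743 genes, with 6.66 degrees of freedom from the prior beside the 2 residual ones. With a dye term there were 31.6 from the prior beside 1 residual degree of freedom. P-values were adjusted by Benjamini-Hochberg with a threshold of 0.05.

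The alternatives were a dye term, rank product, trend with robust moderation, other background, scaling, filter and probe choices, the authors' ratios, the channels fitted without pairs, leaving out 1 tumor at a time, and a running median by level. Members and lists were chosen with earlier results of these data known. Values by tumor are given for members with 1 sign in all 3 tumors, the 5 highest and 5 lowest means and any member past the threshold with or without a dye term. Of other lists, genes past the threshold are named, or else those with the highest and lowest mean. Ldha, Vegfa, Adm, Egln3, Epas1 and further members were named after their values were seen.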

Additional observations from a re-analysis of the deposited data

How the results depend on the processing

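The 40 genes' single values kept their side of the threshold in 710 of the 720 comparisons with an alternative and passed it in 10: Car12 with a dye term, and 9 genes without tumor 2. Over all genes, where 1 was higher and 5 lower, the counts were 124 and 167 with a dye term, 37 and 51 by rank product, 14 and 29 with an intensity trend and robust moderation, and 6 and 12 without background correction. They were 0 and 0 with the processed signals, 0 and 0 with median centring, 0 and 3 with no filter on dim probes, and 0 and 3 with a stricter one. The mean over probes gave 1 higher and 3 lower, and the authors' ratios gave 2 higher and 6 lower. With no pairing of the cultures by tumor (no replicate block) limma gave 0 and 0. The running median by level, added after seeing the data, gave 7 and 17. Leaving out 1 tumor gave 0 to 569 higher and 1 to 928 lower. Under median centring the medians became -0.21 for the 40 genes, -0.32 for the glycolytic enzymes and -0.15 for the 10 other hypoxia targets, against -0.11 for all genes; with 1 tumor left out they ran from -0.08 to -0.04, -0.19 to -0.06 and 0.01 to 0.02. The cause was not tested. The 40 genes passed the background filter in all 6 channels, and whether signal limited their ratios was not tested.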
